A study of Homo sapiens with 6 samples.

Results

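The heat shock and chaperonin genes of KYSE70 cells, a long-established line from a human squamous carcinoma of the esophagus, were described across 6 poly(A) RNA libraries. Members were chosen by gene name alone: the HSP70 and HSP110 genes named HSPA with a number, HSPH1, the 3 HSP90 genes, the HSPB small heat shock protein genes, HSPD1 and HSPE1, the J-protein genes DNAJA, DNAJB and DNAJC, TCP1 and the CCT subunits. This gave 76 of the 48644 gene rows. By their known location, 30 were classed as acting mainly in the cytosol or nucleus, and 8 are subunits of the cytosolic chaperonin CCT. A further 13 reside in the endoplasmic reticulum (ER) and 7 in mitochondria. The other 18 have other roles or no location assigned here, and some of them act in the nucleus or at the ribosome. HSPA1A was not analysed here.

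All cells stably carried a doxycycline-inducible pLKO-Tet-On hairpin vector, directed in one line against TP63 and in the other against SOX2, which encode transcription factors of squamous epithelium. Each line gave 2 libraries at day 4 of doxycycline at 50 ng/ml and 1 library at day 0 without doxycycline. The number in each sample title was treated as a replicate number, yet it may instead name 1 of several hairpins. Both day 0 libraries carry the number 2, so replicate 1 of each line may lack a day 0 library of its own. No group with a non-targeting hairpin is among the 6 libraries, so within a line the hairpin's effect cannot be told apart from that of doxycycline or of 4 days of culture.

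Chaperones bind unfolded proteins and help them to fold. In the cytosol HSP70 hands clients to HSP90 and to the ring-shaped CCT, which folds actin and tubulin, while J-proteins bring clients to HSP70 and HSP110 proteins exchange its nucleotide. BiP (HSPA5) and GRP94 (HSP90B1) do the corresponding work in the ER, and mortalin (HSPA9) with the HSPD1 and HSPE1 chaperonin does it in mitochondria. HSF1 is the main transcription factor of the cytosolic heat shock genes, and the unfolded protein response, through ATF6 and XBP1, controls many of the ER genes.

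In both lines the cytosolic HSP90 genes, HSPA8 and the mitochondrial chaperonin were lower at day 4 than at day 0, while the main ER chaperones did not share a direction. Averaged over both lines, the largest differences were in HSP90AA1, HSPH1, HSPA8, CCT6A and the J-proteins DNAJC9 and DNAJC2, all lower at day 4, and in the small heat shock gene HSPB3, which was higher. None of them passed the test. With limma across 10536 genes, 0 members reached an adjusted p under 0.05 in either line, in the difference of the lines' responses, in their mean, or between the induced lines. Over all genes the corresponding calls were 0 in the shSOX2 line, which is 0.0%, 2 in the shTP63 line, or 0.019%, and 0 in the difference of responses. They were 6, or 0.0569%, in the mean response, and 80, or 0.759%, between the induced lines. The count of 0 depends on the uninduced libraries and on the induced shTP63 libraries. Set against both day 0 libraries together, HSPB3, HSP90AA1, DNAJC9, HSPH1 and DNAJC2 passed in the shTP63 line (limma adjusted p = 0.0147 to 0.0478). Without replicate 1 of induced shTP63, HSP90AA1, HSPB3 and DNAJC9 passed in the mean response, and HSP90B1 between the induced lines (limma adjusted p = 0.0292 to 0.038). Without replicate 2 of induced shTP63, these 3 and DNAJC2 passed in the mean response, and HSPB3 in the shTP63 line (limma adjusted p = 0.0203 to 0.0483). HSPB3 also passed in the mean response with a pseudocount of 0.1 (limma adjusted p = 0.0421). What follows is a description of levels that did not pass a genome-wide threshold, with 1 day 0 library per line.

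Levels are given on the deposited scale, read as log2(RPKM + 1), where RPKM is reads scaled to transcript length and library size. This scale understates the change of low genes. In the hairpin targets, TP63 was at 2.11 and 2.26 in induced shTP63 cells, against 3.99 in uninduced shTP63 cells, and SOX2 was at 4.67 and 5.65 in induced shSOX2 cells, against 6.25 in uninduced shSOX2 cells. In the shTP63 line SOX2 was at 5.41 and 5.55 induced and 5.69 uninduced, so replicate 2 of induced shSOX2 lay at the level of that line. Neither target passed in its own line (limma adjusted p = 0.131 for TP63 and 0.469 for SOX2). All 10 squamous epithelium markers averaged at least 1 RPKM. Their summed level was 1100 to 2500 RPKM in induced shTP63 cells against 2910 RPKM in uninduced shTP63 cells, and 761 to 1140 RPKM in induced shSOX2 cells against 1890 RPKM in uninduced shSOX2 cells. The 5 leukocyte markers summed to at most 0.404 RPKM in any library, with CD3E at 0 in all, and the endothelial markers in the table to at most 0.821 RPKM, with KDR at 0 in all. The 5 fibroblast markers summed to 4.42 to 5.4 RPKM in induced shTP63 cells against 1.9 RPKM uninduced, and to 2.71 to 3.07 RPKM in induced shSOX2 cells against 1.82 RPKM uninduced. Their part in the chaperone values was not tested. The uninduced shTP63 library had 16167 genes above 0, against 21530 to 23509 in the other 5 libraries.

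Of the 76 members, 56 averaged at least 1 RPKM over the 6 libraries and were tested: 19 of 30 cytosolic members, all 8 CCT subunits, all 13 ER members, 6 of 7 mitochondrial members and 10 of the other 18. The highest was HSP90AB1, the constitutive HSP90, at a mean of 206 RPKM, followed by the small heat shock protein gene HSPB1 at 131 RPKM. HSP90B1 averaged 96.3 RPKM, HSP90AA1 and the constitutive HSP70 gene HSPA8 92.6 RPKM each, the stress-inducible HSP70 gene HSPA1B 86.9 RPKM, and HSPA5 77.8 RPKM. These means lie close together beside ranges over the libraries of 0.52 to 1.75 log2 units in these 5 genes, so their order among themselves is not resolved. Among genes just inside the filter DNAJB4 averaged 1.28 RPKM, and just outside it HSPA12A averaged 0.79 RPKM and DNAJC24 0.776 RPKM. The strictly heat-inducible HSPA6 averaged 0.0812 RPKM, its near copy HSPA7 0.0159 RPKM, and the import motor gene DNAJC15 0.00402 RPKM. The 20 members below the filter are not part of the counts that follow.

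Promoter sequences from RefSeq on GRCh38.p14 were matched by symbol for 67 of the 76 members, each window running from 250 bases before to 50 bases after the annotated start. They are shown because HSF1 and the unfolded protein response act through short, well-defined elements, although most members of either class hold neither element in this window. A heat shock element of 3 alternating units, searched on both strands as the unit GAA, its reverse TTC and GAA again with 2 bases of any kind between units, lay in 4 members and in 133 of 27305 promoters, or 0.487%. The 4 were HSPA8, DNAJA1, DNAJB6 and HSPA6, and all are among the 27 cytosolic members with a window. The ER stress element, CCAAT and CCACG with 9 bases of any kind between them, lay in 22 promoters, or 0.0806%, and in 2 of 12 ER members, HSPA5 and HSP90B1. The CCAAT box alone, which the ER stress element contains, lay in 26 of the 67 members and in 35.7% of all promoters. Pairs of units, GAANNTTC or TTCNNGAA, each of which is contained in the element of 3 units, lay in 10 and 9 members and in 6.87% and 7.84% of all promoters. These are matches of letters and not measured binding, and they were not tested against the expression values.

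The 250 bases before the start of 4 of these genes follow, read 5' to 3' on the gene's own strand, with the matches in capitals. HSPA8 (chr11:123062137-123062386, minus strand) and DNAJB6 (chr7:157336754-157337003, plus strand) carry the heat shock element, and HSPA5 (chr9:125241344-125241593, minus strand) and HSP90B1 (chr12:103930160-103930409, plus strand) the ER stress element.
HSPA8: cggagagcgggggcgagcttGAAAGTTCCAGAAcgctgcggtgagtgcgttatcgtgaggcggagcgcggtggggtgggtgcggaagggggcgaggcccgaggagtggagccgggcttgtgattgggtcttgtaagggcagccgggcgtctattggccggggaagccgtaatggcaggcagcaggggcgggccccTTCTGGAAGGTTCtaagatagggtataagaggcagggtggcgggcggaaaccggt
DNAJB6: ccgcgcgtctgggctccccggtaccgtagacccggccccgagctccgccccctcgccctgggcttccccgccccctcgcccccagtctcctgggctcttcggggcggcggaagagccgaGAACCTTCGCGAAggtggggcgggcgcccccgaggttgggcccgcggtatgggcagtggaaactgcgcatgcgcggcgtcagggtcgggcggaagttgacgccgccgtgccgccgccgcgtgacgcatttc
HSPA5: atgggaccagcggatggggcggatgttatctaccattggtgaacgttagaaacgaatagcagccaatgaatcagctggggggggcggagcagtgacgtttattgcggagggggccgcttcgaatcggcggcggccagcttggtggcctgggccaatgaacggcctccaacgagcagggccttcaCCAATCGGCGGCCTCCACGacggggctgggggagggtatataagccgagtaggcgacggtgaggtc
HSP90B1: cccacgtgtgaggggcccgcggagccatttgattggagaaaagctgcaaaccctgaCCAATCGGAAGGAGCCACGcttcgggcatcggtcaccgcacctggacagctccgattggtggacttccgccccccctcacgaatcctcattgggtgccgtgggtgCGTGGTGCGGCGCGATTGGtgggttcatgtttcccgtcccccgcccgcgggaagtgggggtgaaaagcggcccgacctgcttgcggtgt
HSPA8 and HSP90B1 each hold 2 matches, one on each strand. The match of DNAJA1 (chr9:33025276-33025288, plus strand) lies downstream of the annotated start and reads as follows.
DNAJA1: GAACTTTCCAGAA

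**Figure D1:**
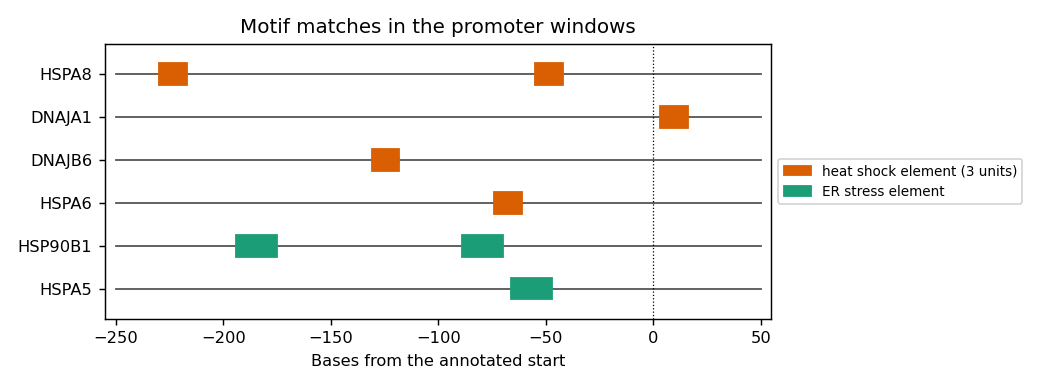
Positions of motif matches in the promoter windows of 6 chaperone genes, in bases from the annotated start (dotted line). Orange blocks are heat shock elements of 3 units, found in the 4 cytosolic genes HSPA8, DNAJA1, DNAJB6 and HSPA6, and green blocks are ER stress elements, found in HSP90B1 and HSPA5.

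The cytosolic HSP90 genes were lower at day 4 in both lines. HSP90AA1, the inducible form, was at 5.62 and 5.69 in induced shTP63 cells, against 7.21 in uninduced shTP63 cells, and at 6.08 and 6.33 in induced shSOX2 cells, against 7.37 in uninduced shSOX2 cells. All 4 induced libraries lay below both uninduced ones. The change was -1.56 ± 0.34 (limma SE) in the shTP63 line and -1.16 ± 0.34 in the shSOX2 line, with limma adjusted p of 0.137 and 0.393, and the mean over both lines was -1.36 ± 0.24 (limma adjusted p = 0.0645). HSP90AB1, the constitutive form, was at 7.05 and 6.81 in induced shTP63 cells, against 7.83 uninduced, and at 7.89 and 7.79 in induced shSOX2 cells, against 8.30 uninduced. It was lower in both lines, but uninduced shTP63 cells were 0.47 below uninduced shSOX2 cells, and the induced shSOX2 libraries lay near uninduced shTP63 cells. Within each library HSP90AA1 minus HSP90AB1 was -1.43 and -1.12 in induced shTP63 cells, against -0.62 uninduced, and -1.81 and -1.45 in induced shSOX2 cells, against -0.93 uninduced. The inducible form was thus the lower one in every library, and further below the constitutive form in the induced ones.

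The HSP70 and HSP110 genes of the cytosol differed from each other in direction. HSPA8 was at 5.70 and 5.89 in induced shTP63 cells, against 6.76 in uninduced shTP63 cells, and at 5.98 and 6.79 in induced shSOX2 cells, against 7.39 in uninduced shSOX2 cells. Every induced library lay below its own uninduced library, although replicate 2 of induced shSOX2 lay at the level of uninduced shTP63 cells. The changes of -0.96 ± 0.42 in the shTP63 line and -1.01 ± 0.42 in the shSOX2 line did not pass (limma adjusted p = 0.346 and 0.469). HSPH1, an HSP110 nucleotide exchange factor, was at 3.65 and 3.52 in induced shTP63 cells, against 4.95 uninduced, and at 4.13 and 4.08 in induced shSOX2 cells, against 5.00 uninduced. All 4 induced libraries were below both uninduced ones, and the mean response was -1.13 ± 0.24 (limma adjusted p = 0.0844). HSPA4, of the same HSP110 group, was at 4.32 and 4.65 in induced shTP63 cells, against 4.71 uninduced, and at 4.17 and 3.56 in induced shSOX2 cells, against 4.63 uninduced. It was lower in all 4 induced libraries, but by only 0.06 in replicate 2 of shTP63.

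HSPA1B, the stress-inducible HSP70 gene, varied least among the abundant cytosolic members. It was at 6.44 and 6.68 in induced shTP63 cells, against 6.37 in uninduced shTP63 cells, and at 6.40 and 6.16 in induced shSOX2 cells, against 6.64 in uninduced shSOX2 cells. It was a little higher in both induced shTP63 libraries and a little lower in both induced shSOX2 libraries, and its range over the 6 libraries was 0.52. Its near-identical neighbour HSPA1A was not analysed here, and the counting of reads shared by such copies is not stated, so the level of HSPA1B is uncertain. The testis-enriched HSPA2 was at 2.70 and 2.39 in induced shTP63 cells, against 2.03 uninduced, and at 1.88 and 1.65 in induced shSOX2 cells, against 1.64 uninduced.

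Among the cytosolic J-proteins, DNAJA1, a co-chaperone of HSP70, was at 4.47 and 4.58 in induced shTP63 cells, against 5.24 in uninduced shTP63 cells, and at 4.11 and 3.95 in induced shSOX2 cells, against 5.12 in uninduced shSOX2 cells. All 4 induced libraries were below both uninduced ones (mean response -0.90 ± 0.24, limma adjusted p = 0.115). DNAJB1, the classical heat-inducible HSP40, was at 5.60 and 5.68 in induced shTP63 cells, against 5.75 uninduced, and at 5.63 and 4.36 in induced shSOX2 cells, against 5.67 uninduced. Replicate 2 of induced shSOX2 stood alone at a low level, and the other 3 induced libraries lay near their day 0 library. DNAJB6, a suppressor of protein aggregation, was at 2.67 and 3.02 in induced shTP63 cells, against 2.86 uninduced, and at 1.77 and 1.83 in induced shSOX2 cells, against 2.71 uninduced. Both induced shSOX2 libraries lay below all 4 others. The change was -0.02 ± 0.32 in the shTP63 line and -0.91 ± 0.32 in the shSOX2 line, and the difference between those responses, 0.89 ± 0.45, did not pass (limma adjusted p = 0.995). Of the 4 members with a 3-unit heat shock element, HSPA8 and DNAJA1 were lower in both lines. DNAJB6 was lower in both libraries of the shSOX2 line, and HSPA6 was below the filter. Lower in both induced libraries were 38.5% of all tested genes in the shTP63 line and 40.2% in the shSOX2 line. HSP90AA1, lower in all 4 induced libraries, holds no such element in its window, and no link between element and direction was tested.

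The small heat shock proteins hold unfolded proteins without using ATP, and the 4 tested genes with an HSPB name did not share a direction. HSPB3, best known from muscle, was at 3.26 and 2.97 in induced shTP63 cells, against 1.11 in uninduced shTP63 cells, and at 1.85 and 2.16 in induced shSOX2 cells, against 1.23 in uninduced shSOX2 cells. All 4 induced libraries lay above both uninduced ones, and the induced shTP63 libraries above the induced shSOX2 ones. The change was 2.00 ± 0.32 in the shTP63 line, which is 4.01-fold on this scale, and 0.78 ± 0.32 in the shSOX2 line (limma adjusted p = 0.116 and 0.469). The mean response of 1.39 ± 0.23 had a limma adjusted p of 0.0586, the lowest of any member in these 5 comparisons, and the difference between the lines' responses, 1.23 ± 0.45, did not pass (limma adjusted p = 0.995). HSPB8 was at 2.39 and 2.35 in induced shTP63 cells, against 1.75 uninduced, and at 2.24 and 1.64 in induced shSOX2 cells, against 1.80 uninduced. The abundant HSPB1 was at 7.21 and 7.40 in induced shTP63 cells, against 7.15 uninduced, and at 6.84 and 6.75 in induced shSOX2 cells, against 6.74 uninduced. It was higher in all 4 induced libraries, by 0.01 to 0.25. HSPB8 was lower than day 0 in replicate 2 of induced shSOX2 alone. HSPB11, an intraflagellar transport subunit despite its name, was at 1.61 and 1.45 in induced shTP63 cells, against 2.15 uninduced, and at 1.78 and 1.57 in induced shSOX2 cells, against 1.78 uninduced. It was lower in both induced shTP63 libraries and in replicate 2 of induced shSOX2, and level with day 0 to 2 decimals in replicate 1 of induced shSOX2.

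**Figure D2:**
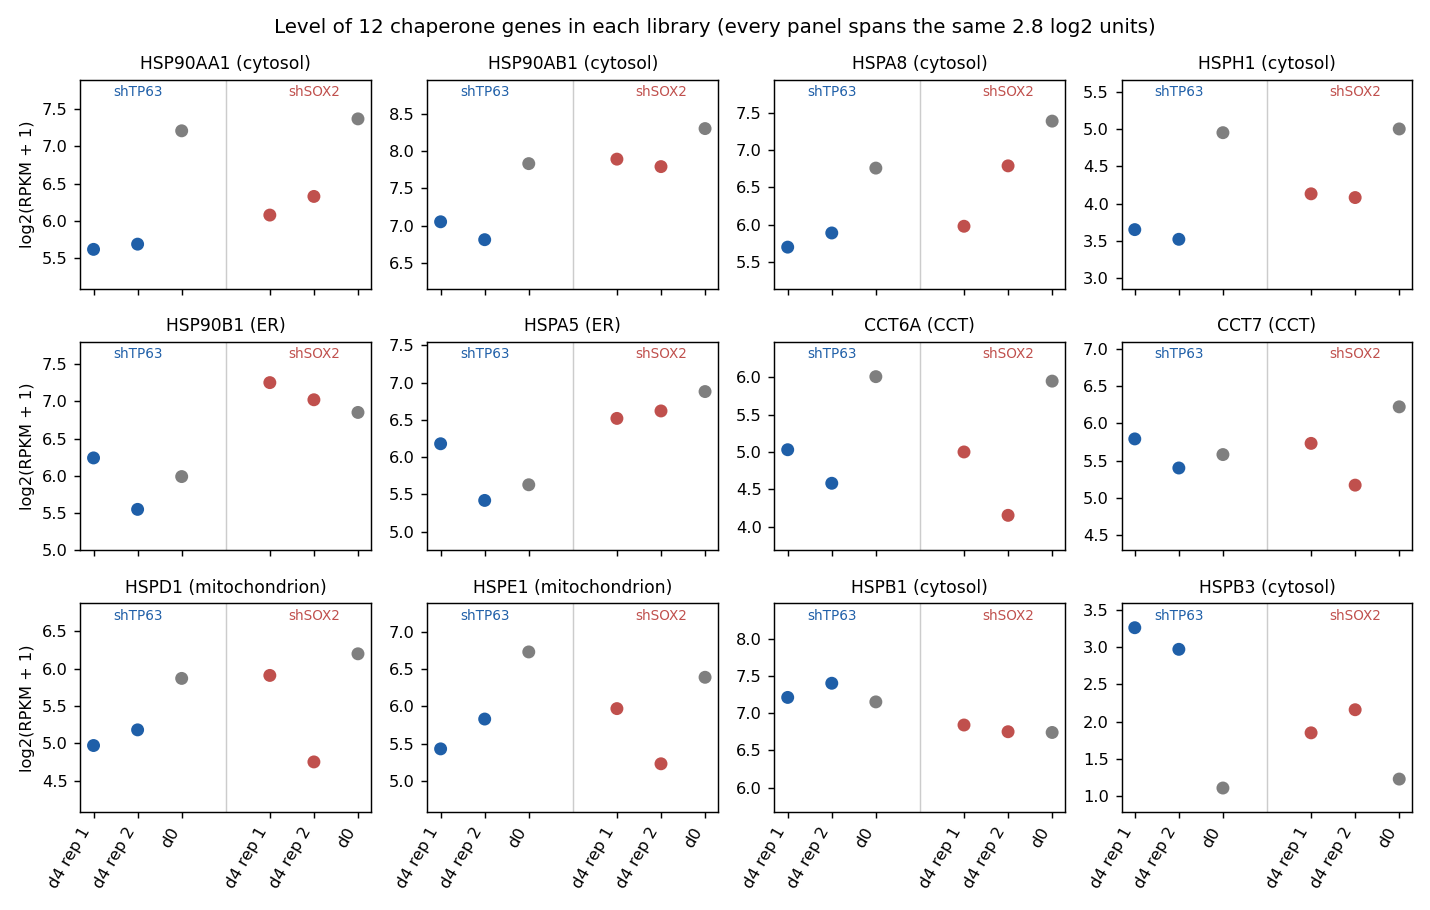
Level of 12 chaperone genes in each library as log2(RPKM + 1), with day 4 libraries in colour (shTP63 blue, shSOX2 red) and day 0 libraries in grey, every panel spanning the same height. HSP90AA1, HSPH1 and CCT6A lie below both day 0 libraries in all 4 day 4 libraries and HSPB3 above them, while HSPA5 and HSP90B1 divide by line more than by day.

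All 8 CCT subunits lay below day 0 in both induced shSOX2 libraries, where 40.2% of all genes did. In both induced shTP63 libraries 5 of 8 did so, where 38.5% of all genes did. The 8 depends on the day 0 library: 5 of 8 were lower in both induced shSOX2 libraries when set against uninduced shTP63 cells. By the stricter rule of lying below each day 0 library, the count was also 5. CCT6A differed most, at 5.03 and 4.58 in induced shTP63 cells, against 6.01 in uninduced shTP63 cells, and at 5.00 and 4.15 in induced shSOX2 cells, against 5.95 in uninduced shSOX2 cells. The uninduced libraries lay 0.06 apart, and all 4 induced libraries lay below both. Its changes of -1.20 ± 0.45 and -1.38 ± 0.45 in the shTP63 and shSOX2 lines did not pass (limma adjusted p = 0.283 and 0.423). TCP1, the alpha subunit, was at 3.89 and 3.92 in induced shTP63 cells, against 5.10 uninduced, and at 4.57 and 3.86 in induced shSOX2 cells, against 4.80 uninduced. CCT2 was at 4.25 and 3.96 in induced shTP63 cells, against 4.63 uninduced, and at 4.38 and 3.96 in induced shSOX2 cells, against 5.16 uninduced. CCT5 was at 4.73 and 4.54 in induced shTP63 cells, against 5.16 uninduced, and at 4.61 and 4.35 in induced shSOX2 cells, against 5.57 uninduced. TCP1, CCT2, CCT5, CCT6A and CCT8 were below both uninduced libraries in all 4 induced ones.

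In CCT3, CCT4 and CCT7 the induced shTP63 libraries lay on both sides of day 0. CCT3 was at 5.31 and 5.07 in induced shTP63 cells, against 5.22 in uninduced shTP63 cells, and at 5.61 and 5.07 in induced shSOX2 cells, against 6.16 in uninduced shSOX2 cells. CCT7, the most abundant subunit by mean at 50.5 RPKM, was at 5.79 and 5.40 in induced shTP63 cells, against 5.58 uninduced, and at 5.73 and 5.17 in induced shSOX2 cells, against 6.22 uninduced. The uninduced shTP63 library was below the uninduced shSOX2 library by 0.93 in CCT3, by 0.65 in CCT7 and by 0.33 in CCT4, while the induced levels of the lines overlapped. Subunits of one ring did not share a level: within every library CCT4 was the lowest, at 3.83 and 3.65 in induced shTP63 cells, against 3.78 uninduced, and at 3.90 and 3.25 in induced shSOX2 cells, against 4.11 uninduced. CCT7 was the highest in every library except uninduced shTP63 cells, where CCT6A was. In all 8 subunits replicate 2 of induced shSOX2 lay below replicate 1, with a median difference of 0.56 between them over the subunits, against 0.04 over all genes.

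In the ER the main chaperones GRP94 and BiP did not share a direction. HSP90B1 (GRP94) was at 6.24 and 5.55 in induced shTP63 cells, against 5.99 in uninduced shTP63 cells, and at 7.25 and 7.02 in induced shSOX2 cells, against 6.85 in uninduced shSOX2 cells. It was higher in both induced shSOX2 libraries and lay on both sides of day 0 in the shTP63 line. HSPA5 (BiP) was at 6.18 and 5.42 in induced shTP63 cells, against 5.63 uninduced, and at 6.52 and 6.62 in induced shSOX2 cells, against 6.88 uninduced. Both genes, which carry the ER stress element shown above, were lower in all 3 shTP63 libraries than in any shSOX2 library. That difference was already there without doxycycline: uninduced shTP63 cells minus uninduced shSOX2 cells was -1.25 in HSPA5 and -0.86 in HSP90B1. The change at day 4 was 0.17 ± 0.41 in HSPA5 and -0.10 ± 0.40 in HSP90B1 in the shTP63 line, and -0.32 ± 0.41 and 0.28 ± 0.40 in the shSOX2 line (limma adjusted p = 0.801 to 0.934 for these 4 values).

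HSPA13, a microsomal HSP70 relative, lay on opposite sides of day 0 in the lines. It was at 1.19 and 1.05 in induced shTP63 cells, against 1.65 in uninduced shTP63 cells, and at 2.10 and 2.15 in induced shSOX2 cells, against 1.60 in uninduced shSOX2 cells. The uninduced libraries lay 0.04 apart, and the induced ones did not overlap. The responses differed by -1.05 ± 0.40, with an unadjusted p of 0.0331 from limma that did not survive adjustment (limma adjusted p = 0.995). Among the J-proteins of the ER, DNAJB9, which binds BiP, was at 1.58 in both induced shTP63 libraries, against 1.27 uninduced, and at 1.08 and 1.63 in induced shSOX2 cells, against 0.81 uninduced. DNAJB11, an abundant BiP co-chaperone, was at 5.21 and 4.40 in induced shTP63 cells, against 5.40 uninduced, and at 5.54 and 5.98 in induced shSOX2 cells, against 5.90 uninduced. DNAJC18 was at 1.29 and 1.34 in induced shTP63 cells, against 1.09 uninduced, and at 1.46 and 1.95 in induced shSOX2 cells, against 0.96 uninduced. With HSPB3 it was one of only 2 tested members above both uninduced libraries in all 4 induced ones, and its changes of 0.22 ± 0.32 and 0.75 ± 0.32 in the shTP63 and shSOX2 lines did not pass (limma adjusted p = 0.789 and 0.481). DNAJB14, of the ER membrane, was at 1.59 and 1.31 in induced shTP63 cells, against 1.48 uninduced, and at 1.50 and 1.44 in induced shSOX2 cells, against 1.13 uninduced.

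The mitochondrial members were mostly below day 0, with exceptions in 1 of the 4 induced libraries for DNAJA3 and in 2 of 4 for DNAJC19. HSPD1, the HSP60 barrel, was at 4.97 and 5.18 in induced shTP63 cells, against 5.87 in uninduced shTP63 cells, and at 5.91 and 4.75 in induced shSOX2 cells, against 6.20 in uninduced shSOX2 cells. HSPE1, its lid, was at 5.43 and 5.83 in induced shTP63 cells, against 6.73 uninduced, and at 5.97 and 5.23 in induced shSOX2 cells, against 6.39 uninduced. Both were lower in all 4 induced libraries than in their own day 0 library, and replicate 2 of induced shSOX2 lay lower than replicate 1 in each. The changes were -0.80 ± 0.50 in HSPD1 and -1.10 ± 0.42 in HSPE1 in the shTP63 line, and -0.87 ± 0.50 and -0.79 ± 0.42 in the shSOX2 line (limma adjusted p = 0.291 to 0.564 for these 4 values). HSPA9 was at 5.22 and 5.33 in induced shTP63 cells, against 5.78 uninduced, and at 5.45 and 5.25 in induced shSOX2 cells, against 5.88 uninduced. All 4 induced libraries were below both uninduced ones. DNAJA3, the matrix J-protein that works with HSPA9, was at 3.39 and 2.83 in induced shTP63 cells, against 4.20 uninduced, and at 4.06 and 2.98 in induced shSOX2 cells, against 4.02 uninduced. DNAJC11, of cristae organisation, was at 3.79 and 4.08 in induced shTP63 cells, against 4.10 uninduced, and at 3.42 and 3.30 in induced shSOX2 cells, against 4.34 uninduced. DNAJC19, of the import motor, ranged over 0.36 log2 units in the 6 libraries.

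Of the J-proteins with other known roles, DNAJC9, a histone chaperone, was at 2.73 and 2.46 in induced shTP63 cells, against 4.08 in uninduced shTP63 cells, and at 3.16 in both induced shSOX2 libraries, against 4.34 in uninduced shSOX2 cells. DNAJC2, which works at the ribosome, was at 1.10 and 1.47 in induced shTP63 cells, against 2.69 uninduced, and at 1.50 and 1.31 in induced shSOX2 cells, against 2.30 uninduced. All 4 induced libraries lay below both uninduced ones in both genes, and the mean responses were -1.34 ± 0.23 for DNAJC9 and -1.15 ± 0.22 for DNAJC2 (limma adjusted p = 0.0645 and 0.0718). DNAJC4 was at 2.17 and 1.70 in induced shTP63 cells, against 0.97 uninduced, and at 1.64 and 2.49 in induced shSOX2 cells, against 1.80 uninduced. DNAJB4, a cytosolic J-protein near the filter, was at 1.39 and 1.92 in induced shTP63 cells, against 0.65 uninduced, and at 1.25 and 0.63 in induced shSOX2 cells, against 0.82 uninduced. Neither passed in the shTP63 line (limma adjusted p = 0.349 for DNAJC4 and 0.28 for DNAJB4).

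Counted over the 56 tested members, 30 were lower than day 0 in both induced shTP63 libraries, where 38.5% of all tested genes were, and 16 were higher in both, where 37.9% of all genes were. The 30 were 9 of 19 cytosolic members, 5 of 8 CCT subunits, 6 of 13 ER members, 5 of 6 mitochondrial members and 5 of 10 others. In the shSOX2 line 32 of 56 were lower in both induced libraries, where 40.2% of all genes were, and 12 were higher in both, where 33.3% of all genes were. The 32 were 13 of 19 cytosolic members, 8 of 8 CCT subunits, 2 of 13 ER members, 4 of 6 mitochondrial members and 5 of 10 others, and 7 of the 12 that were higher were ER members. As shares, 53.6% of the members in the shTP63 line and 57.1% in the shSOX2 line were lower.

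A rule of 2-fold was applied to RPKM + 1, for members and for all genes, so genes at low RPKM can miss it. By this rule, at least 2-fold lower in both induced libraries were 5 members in the shTP63 line, where 2.82% of all genes were. They were HSP90AA1, HSPH1, TCP1, DNAJC2 and DNAJC9. In the shSOX2 line the members lower by this rule were HSP90AA1, DNAJA1 and DNAJC9, where 0.987% of all genes were. At least 2-fold higher in both by this rule was HSPB3 alone in the shTP63 line, where 3.05% of all genes were. In the shSOX2 line 0 members were, where 2.48% of all genes were. In RPKM itself, DNAJB4 and DNAJC4 were also more than 2-fold higher, and DNAJC25 more than 2-fold lower, in both induced shTP63 libraries. Likewise DNAJB6 and DNAJC2 were more than 2-fold lower in both induced shSOX2 libraries. Below an unadjusted limma p of 0.05 in the shTP63 line were 11 members, against 14.6% of all genes. Of these 9 were lower, where 7.24% of all genes were, and 2 higher, where 7.33% were. In the shSOX2 line 14 members were below it, against 10.4% of all genes. Of these 12 were lower, where 4.26% of all genes were, and 2 higher, where 6.12% were.

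Taking both lines, 23 of 56 members, or 41.1%, were below their own day 0 library in all 4 induced libraries, where 23.0% of all genes were. They were 9 cytosolic members, 5 CCT subunits, 4 mitochondrial members, 4 others and in the ER only DNAJC14, an ER membrane J-protein. The counts here go by sign alone, however small the difference. HSPB11 is among the 23 although level with day 0 to 2 decimals in replicate 1 of shSOX2, and DNAJC11 with -0.02 in replicate 2 of shTP63. Above their own day 0 library in all 4 were 6, HSPA2, HSPB1, HSPB3, DNAJB9, DNAJC18 and DNAJC5, where 19.4% of all genes were. Below both day 0 libraries in all 4 were 18 members, or 32.1%, where 14.2% of all genes were, and above both were HSPB3 and DNAJC18, where 11.5% of all genes were. For the mean response 16 members were below an unadjusted limma p of 0.05, against 20.6% of all genes, with 15 lower, where 10.1% of all genes were, and HSPB3 higher, where 10.4% were.

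**Figure D3:**
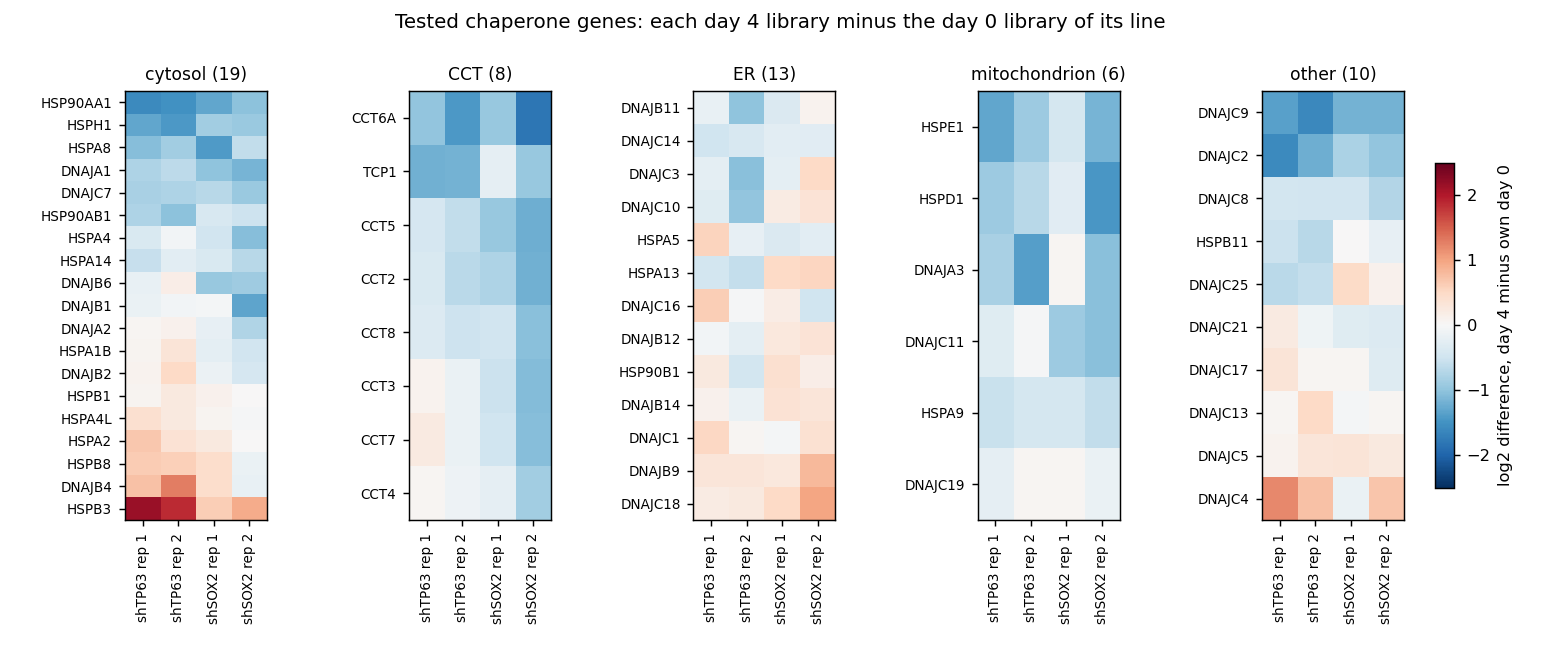
Log2 difference of each day 4 library from the day 0 library of its line for the 56 tested chaperone genes, grouped by compartment, blue for lower and red for higher at day 4. Each panel has the shTP63 libraries on the left and the shSOX2 libraries on the right: the CCT and mitochondrial panels are mostly blue, the ER panel is pale, and HSPB3 reaches 2.15 in replicate 1 of shTP63.

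The median change per compartment summarises this, without a test of its own. In the shTP63 line it was -0.02 over the 19 cytosolic members, -0.48 over CCT, -0.10 over the ER and -0.65 over mitochondria, against 0.00 over all genes. In the shSOX2 line it was -0.48 over the cytosol, -0.80 over CCT, 0.27 over the ER and -0.66 over mitochondria, against -0.05 over all genes. The day 4 replicates of shTP63 gave -0.16 and 0.10 for the cytosol and 0.11 and -0.24 for the ER, so both lay on either side of 0, while those of shSOX2 gave -0.24 and -0.61 for the cytosol and 0.20 and 0.34 for the ER. For CCT the day 4 replicates gave -0.36 and -0.57 in the shTP63 line and -0.52 and -1.07 in the shSOX2 line, and for mitochondria -0.68 and -0.57 in the shTP63 line and -0.36 and -1.04 in the shSOX2 line. Both shSOX2 medians are thus below 0 in either replicate, and their size depends on the replicate. The cytosolic median depends on the low members: over those averaging at least 5 RPKM it was -0.72 in the shTP63 line and -0.77 in the shSOX2 line.

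Summed as linear RPKM over all members of a compartment, the cytosolic chaperones reached 617 and 654 RPKM in induced shTP63 cells, against 895 RPKM in uninduced shTP63 cells, and 697 and 678 RPKM in induced shSOX2 cells, against 1033 RPKM in uninduced shSOX2 cells. CCT summed to 213 and 175 RPKM in induced shTP63 cells, against 273 RPKM uninduced, and to 228 and 151 RPKM in induced shSOX2 cells, against 354 RPKM uninduced. The mitochondrial members summed to 139 and 162 RPKM in induced shTP63 cells, against 259 RPKM uninduced, and to 197 and 122 RPKM in induced shSOX2 cells, against 256 RPKM uninduced. In these 3 compartments all 4 induced libraries lay below both uninduced ones. The same held for the 18 other members. They summed to 50.5 and 49.6 RPKM in induced shTP63 cells, against 66.0 RPKM uninduced, and to 52.3 and 49.5 RPKM in induced shSOX2 cells, against 65.1 RPKM uninduced. This class is mixed and includes the histone chaperone DNAJC9. DNAJC9 was at 5.62 and 4.51 RPKM in induced shTP63 cells, against 15.9 RPKM uninduced. In induced shSOX2 cells it was at 7.96 and 7.93 RPKM, against 19.3 RPKM uninduced. The sum therefore does not show whether further compartments share the lower level. The ER members summed to 214 and 133 RPKM in induced shTP63 cells, against 186 RPKM uninduced, and to 321 and 329 RPKM in induced shSOX2 cells, against 321 RPKM uninduced. Every shTP63 library lay below every shSOX2 library in the ER sum. The sums rest on few genes: HSP90AB1 made up 27.1% of the cytosolic mean level, HSPB1 17.1% and HSP90AA1 12.2%, and HSP90B1 and HSPA5 made up 38.4% and 31.1% of that of the ER. In these bulk libraries fewer cells with a transcript and less of it per cell cannot be told apart.

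**Figure D4:**
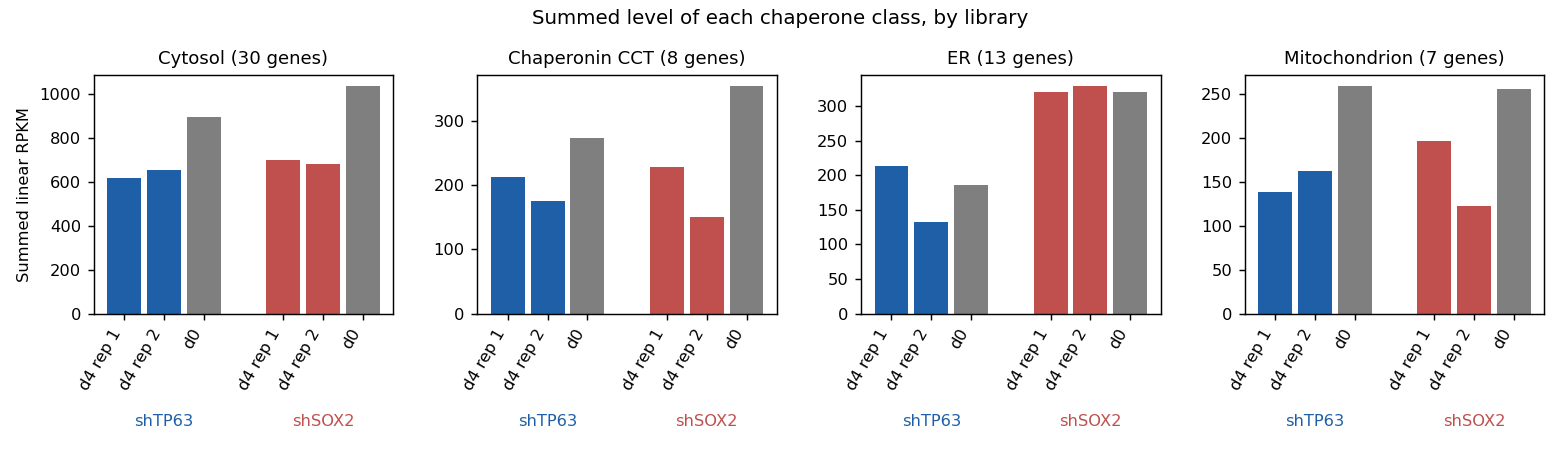
Summed linear RPKM of all members of 4 chaperone classes in each library, with bars from 0, day 4 libraries in colour and day 0 in grey. The cytosolic, CCT and mitochondrial bars are lower at day 4 in both lines, while the ER bars of shTP63 lie between 133 and 214 RPKM and those of shSOX2 between 321 and 329 RPKM.

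The contrast between compartments was also taken inside single libraries, where a factor common to a library does not enter. HSP90AA1 minus its ER counterpart HSP90B1 was -0.62 and 0.14 in induced shTP63 cells, against 1.22 in uninduced shTP63 cells, and -1.17 and -0.69 in induced shSOX2 cells, against 0.51 in uninduced shSOX2 cells. HSPA8 minus HSPA5 was -0.47 and 0.47 in induced shTP63 cells, against 1.13 uninduced, and -0.53 and 0.16 in induced shSOX2 cells, against 0.51 uninduced. In both pairs every induced library lay below both uninduced ones. That did not hold for the mitochondrial HSPA9 minus HSPA5, which was -0.96 and -0.09 in induced shTP63 cells, against 0.15 uninduced, and -1.07 and -1.37 in induced shSOX2 cells, against -1.01 uninduced. Here each induced library lay below its own day 0 library, but the induced shTP63 libraries lay above uninduced shSOX2 cells. The pairs were chosen with the values known and are a description only.

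The lines were then compared with each other. For the difference of their responses, 2 members were below an unadjusted limma p of 0.05, against 4.55% of all genes: HSPA13 was lower in the shTP63 response, where 2.47% of all genes were, and HSPB3 higher, where 2.08% were. Between the induced lines 15 of 56 members were lower in induced shTP63 cells with no overlap of the libraries, where 26.6% of all genes were, and 16 were higher, where 30.5% were. Of the 15, 7 were ER members, HSPA5, HSPA13, HSP90B1, DNAJB11, DNAJC1, DNAJB12 and DNAJC18, and of the 16, 12 were cytosolic. Below an unadjusted limma p of 0.05 were 11 members, against 23.0% of all genes, with 5 lower in induced shTP63 cells, where 12.5% of all genes were, and 6 higher, where 10.5% were. The induced shTP63 libraries minus the induced shSOX2 libraries gave -1.25 ± 0.32 for HSP90B1, -0.91 ± 0.26 for HSP90AB1, 1.05 ± 0.26 for DNAJB6 and 1.11 ± 0.26 for HSPB3, with limma adjusted p of 0.0932 to 0.121. For HSP90B1 and HSP90AB1 the uninduced lines already differed in the same direction, by -0.86 and -0.47. The same held for the ER members HSPA5, DNAJB11 and DNAJC1, but not for HSPA13, DNAJB12 and DNAJC18. Of the 12 cytosolic members, HSPA2, HSPA4, HSPA4L, HSPB1, DNAJA1, DNAJB2 and DNAJB6 were already higher in uninduced shTP63 cells, by 0.08 to 0.41. HSPA1B, HSPB3, HSPB8, DNAJA2 and DNAJB4 were not. These counts therefore do not tell induction from a difference between the lines.

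**Figure D5:**
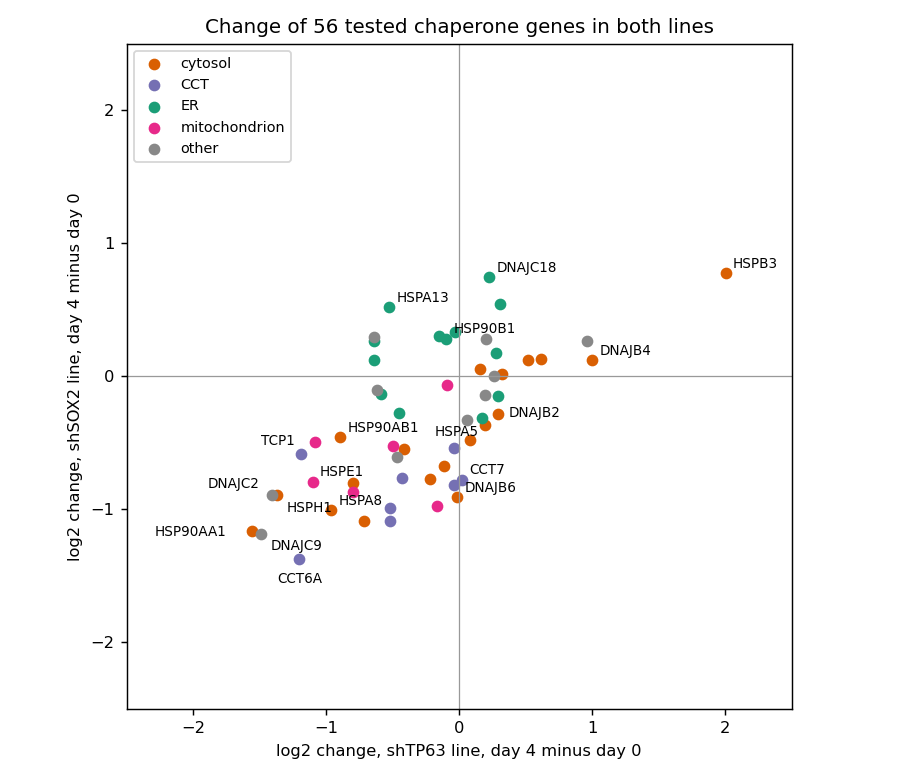
Log2 change at day 4 in the shTP63 line (x axis) against that in the shSOX2 line (y axis) for the 56 tested chaperone genes, coloured by compartment. HSP90AA1, DNAJC9, DNAJC2, HSPH1 and CCT6A lie at the lower left, HSPB3 at the far right with 2.00 in shTP63 and 0.78 in shSOX2, and HSPA13 at the upper left.

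Related genes outside the members were taken from 4 lists, which were written with earlier results of these data known. None of their genes passed limma's adjusted threshold in any of the 5 comparisons. In the list of the HSF1 pathway and cytosolic co-chaperones, 13 of 20 tested genes were lower and 4 higher in both induced shTP63 libraries, and 16 were lower and 2 higher in both induced shSOX2 libraries, with median changes of -0.34 and -0.45. Of all tested genes 38.5% were lower and 37.9% higher in both induced shTP63 libraries, and 40.2% were lower and 33.3% higher in both induced shSOX2 libraries. STIP1, which links HSP70 to HSP90, was at 5.28 and 5.11 in induced shTP63 cells, against 5.47 uninduced, and at 5.45 and 4.82 in induced shSOX2 cells, against 6.16 uninduced. CRYAB, a further small heat shock protein gene, was at 6.33 and 6.56 in induced shTP63 cells, against 4.44 uninduced, and at 4.14 and 4.85 in induced shSOX2 cells, against 3.76 uninduced. Like HSPB3 it was above both uninduced libraries in both induced shTP63 libraries, with a change of 2.00 ± 0.41 (limma adjusted p = 0.137). HSF1 itself, named outside the rule for its role, was at 4.02 and 4.29 in induced shTP63 cells, against 4.70 uninduced, and at 4.21 and 4.13 in induced shSOX2 cells, against 4.15 uninduced. HSPBP1, a nucleotide exchange factor of HSP70, differed by -0.85 ± 0.41 in the shSOX2 line, and BAG2, another co-chaperone, by -0.92 ± 0.38 in the shTP63 line, and neither passed (limma adjusted p = 0.521 and 0.33).

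Of the 8 genes of prefoldin, which delivers actin and tubulin to CCT, and its relatives, 5 were lower and 2 higher in both induced shTP63 libraries, where 38.5% and 37.9% of all genes were. In both induced shSOX2 libraries 7 were lower and 0 higher, where 40.2% and 33.3% of all genes were, and the medians were -0.33 in the shTP63 and -0.55 in the shSOX2 line. PFDN5 was higher at day 4 in the shTP63 line, at 5.94 and 5.30 in induced shTP63 cells, against 4.04 in uninduced shTP63 cells, and at 5.90 and 5.15 in induced shSOX2 cells, against 5.50 in uninduced shSOX2 cells. Its uninduced shTP63 value stood below the other 5 libraries. PFDN6 was at 4.52 and 4.15 in induced shTP63 cells, against 5.10 uninduced, and at 4.47 and 3.77 in induced shSOX2 cells, against 4.89 uninduced. PDCL3 and VBP1 differed by -0.89 ± 0.37 and -0.83 ± 0.58 in the shSOX2 line, with limma adjusted p of 0.465 and 0.629.

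Of 22 tested genes of ER folding and the unfolded protein response, 9 were lower and 8 higher in both induced shTP63 libraries, where 38.5% and 37.9% of all genes were, and 4 were lower and 14 higher in both induced shSOX2 libraries, where 40.2% and 33.3% were. The medians were -0.01 in the shTP63 and 0.44 in the shSOX2 line. With no overlap, 16 of the 22 were lower in induced shTP63 than in induced shSOX2 cells, where 26.6% of all genes were. Only 1 was higher, where 30.5% were. All of those 16 except ERO1L, SEC63 and EDEM1 were also lower in uninduced shTP63 than in uninduced shSOX2 cells. The count therefore does not tell induction from a difference between the lines. SIL1, the nucleotide exchange factor of BiP, was at 2.89 and 2.87 in induced shTP63 cells, against 1.95 uninduced, and at 3.34 and 3.58 in induced shSOX2 cells, against 2.20 uninduced. SERPINH1, the collagen chaperone HSP47, was at 5.44 and 4.83 in induced shTP63 cells, against 4.22 uninduced, and at 6.50 and 6.24 in induced shSOX2 cells, against 5.27 uninduced. Both were above their own day 0 library in all 4 induced libraries and did not pass (limma adjusted p = 0.255 and 0.343 in the shTP63 line, 0.349 and 0.435 in the shSOX2 line). Of the 14 genes of mitochondrial protein quality control, 9 were lower and 2 higher in both induced shTP63 libraries, where 38.5% and 37.9% of all genes were, with a median of -0.50. In both induced shSOX2 libraries 10 were lower and 0 higher, where 40.2% and 33.3% of all genes were, with a median of -0.23. HTRA2, a protease of the intermembrane space, was at 2.02 and 1.99 in induced shTP63 cells, against 2.81 uninduced, and at 2.20 and 2.55 in induced shSOX2 cells, against 2.97 uninduced. LONP1, the matrix protease, differed by -0.86 ± 0.42 in the shTP63 line, and GRPEL1, the nucleotide exchange factor of HSPA9, by -0.65 ± 0.41 in the shSOX2 line (limma adjusted p = 0.388 and 0.599).

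Chaperone genes have many processed pseudogenes that can take their reads. Pseudogenes were sought only by name, as the member's symbol followed by P and a number, with separate patterns for HSP90. At least 1 was matched for 14 members, 41 pseudogenes in all. Their share of the summed level was highest for HSPD1, at 1.64% over 14 pseudogenes, and HSPB1, at 1.46%. Pseudogenes named otherwise were not sought, and none was matched to CCT6A. No strand-specific step is stated, so reads of overlapping antisense genes may be included.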

How the data were processed

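Poly(A) RNA of 6 libraries was sequenced; per the labels' protocols, RNA was fragmented, reverse transcribed with random primers and made into libraries for an Illumina HiSeq instrument. The authors deposited 1 table of RPKM values. From their range they were taken for log2(RPKM + 1) of unstated base, here base 2, and, since all 6 libraries share the highest value of 13.365, for quantile-normalized. The deposited log2 values entered the tests without a further log. The read depth is therefore unknown, and no interval for counting error can be given. The submitters' processing notes name the build hg19 and no aligner, counter or annotation.

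Genes with a mean linear RPKM (2 to the power of the value, minus 1) of at least 1 were kept, which left 10536. A model of 4 group means over the 6 libraries was fitted in limma 3.58.1 (R 4.3.3) with a mean-variance trend, with 2 residual and 5.53 prior degrees of freedom. The lone day 0 library of a line is assumed to vary like the day 4 pairs. Tests are two-sided and adjusted after Benjamini and Hochberg over all tested genes, with calls at an adjusted p under 0.05. Errors are limma standard errors. Nothing says that libraries of a group came from separate cultures, so the p-values cover no more than the spread among these libraries, which may be technical. The fit was checked on simulated data, with changes larger than that of any member here. The check therefore does not show how well changes of the size reported are recovered.

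Members were matched by name, and compartments and roles were assigned from general knowledge. The members and lists were chosen with earlier results of these data known. Named genes were 20 core chaperones and, per line, the 5 largest differences in each direction. Those were taken among tested members whose day 4 libraries lay on the same side of day 0. Of each related list, the 2 largest per line were named. Among members, HSPA4, DNAJB6, HSPB11, DNAJB11, DNAJA3, DNAJC11, DNAJC19 and some others were described outside this rule. Further members, such as DNAJC7, are counted but not described. Motifs were searched on both strands of the RefSeq windows. The alternatives were other pseudocounts (0.1 and 5), filters, scaling, controls, a replicate block, no trend and leaving out libraries. Python 3.11.15 with pandas 2.3.3 and numpy 2.4.6 was used for the summaries.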

Additional observations from a re-analysis of the deposited data

Results flagged for a closer look

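HSPA13 was below day 0 in both induced shTP63 libraries and above it in both induced shSOX2 libraries. The shTP63 response minus the shSOX2 response was -1.05 ± 0.40 on the log2 scale, which did not pass (limma adjusted p = 0.995, unadjusted p = 0.0331). HSPA1B went the opposite way, above day 0 in both induced shTP63 libraries and below it in both induced shSOX2 libraries. Its difference of responses was 0.56 ± 0.48, which did not pass either (limma adjusted p = 0.995). Set against uninduced shSOX2 cells, the change of HSPA1B in induced shTP63 cells was -0.08, so its direction depends on the uninduced library used. The cytosolic J-protein genes DNAJA2 and DNAJB2 had the pattern of HSPA1B, with differences of 0.55 ± 0.50 and 0.57 ± 0.48. The ER genes DNAJC10 and DNAJB12 and the unplaced DNAJC25 had the pattern of HSPA13, with differences of -0.91 ± 0.50, -0.46 ± 0.46 and -0.93 ± 0.42. For these 5 genes too the limma adjusted p was 0.995. In most of them the direction also depends on the uninduced library. Induced shSOX2 cells were at 1.56 and 1.69 in DNAJC10, below the 2.00 of uninduced shTP63 cells. In DNAJB12 they were at 3.28 and 3.35, on both sides of 3.31, and in DNAJC25 at 1.92 and 1.56, on both sides of 1.57. Induced shTP63 cells were at 2.98 and 3.03 in DNAJA2, on both sides of the 3.02 of uninduced shSOX2 cells. HSPA13 and DNAJB2 kept their directions.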

How the results depend on the processing

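The replicate numbers were not shown to pair the libraries: the difference between replicates correlated at -0.0738 between the lines over 10536 genes. With a replicate block 0 members passed in each comparison, the medians were 0.13 for the ER and -0.25 for the other members in the shSOX2 line and -0.62 for CCT, -0.78 for mitochondria and -0.29 for the other members in the shTP63 line, and CCT7 in the shTP63 line turned to -0.21. With both day 0 libraries as the control 5 members passed in the shTP63 line (HSPB3, HSP90AA1, DNAJC9, HSPH1 and DNAJC2, limma adjusted p = 0.0147 to 0.0478), against 0 with its own. The mean response had 1 call with a pseudocount of 0.1. Without the uninduced shTP63 library, an alternative chosen after seeing the data, as were those of the counts in both libraries, 0 members passed in the shSOX2 line and between the induced lines. Leaving out 1 library gave 0 to 1 calls in the shTP63 line (1, HSPB3, without its replicate 2), 0 to 4 in the mean response (3 without shTP63 replicate 1 and 4 without replicate 2) and 0 to 1 between the induced lines (1, HSP90B1, without shTP63 replicate 1). Over all alternatives the smallest limma adjusted p of any member ran from 0.0837 to 0.603 in the shSOX2 line, 0.0147 to 0.226 in the shTP63 line, 0.348 to 0.999 for the difference of responses, 0.0203 to 0.158 for the mean response and 0.038 to 0.286 between the induced lines.

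In the shSOX2 line the cytosolic median was -0.19 with no filter and -0.77 at 5 RPKM or more, the ER median 0.12 with a pseudocount of 5 and 0.07 at 5 RPKM, and that of the other members -0.61 at 5 RPKM. In the shTP63 line the cytosolic median was -0.72 at 5 RPKM, that of CCT -0.91 against uninduced shSOX2 cells, that of mitochondria -0.50 with no filter and -0.74 against both day 0 libraries, and that of the other members -0.10 with a pseudocount of 5, 0.04 with no filter, -0.47 at 5 RPKM, -0.09 against both day 0 libraries and 0.00 against uninduced shSOX2 cells. Without 1 replicate, the medians in the shTP63 line ran from -0.68 to -0.57 for mitochondria and from -0.29 to -0.21 for the other members, and in the shSOX2 line from -0.26 to -0.10 for the other members, and members higher in the remaining shSOX2 library numbered 17 to 19 (19 without replicate 2), where only 1 library has to be higher. In the counts that follow, against both day 0 libraries means beyond each of them, which is stricter than beyond their mean. Members higher in both day 4 libraries numbered 4 at 5 RPKM in the shTP63 line and 4 in the shSOX2 line. Against both day 0 libraries they numbered 10 in the shTP63 line and 5 in the shSOX2 line. In the shSOX2 line, ER members higher in both numbered 2 at 5 RPKM and 3 above each day 0 library, against 7. The 3 thus rests on a stricter rule as well as on another control. CCT subunits lower in both shSOX2 libraries numbered 5 against both day 0 libraries or against uninduced shTP63 cells, against 8. In the shTP63 line they numbered 8 against uninduced shSOX2 cells, against 5.

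Of 772 values of named genes under alternatives, 748 kept their direction and side of the threshold, 6 newly passed, and 18 changed direction. Against both day 0 libraries HSPA5 was 0.31 and HSPB1 -0.15 in the shSOX2 line, and HSPA5 -0.46 and CCT7 -0.30 in the shTP63 line. Against uninduced cells of the other line HSPA5 was 0.94, HSP90AB1 0.01, HSPB1 -0.35, CCT3 0.12 and DNAJB14 -0.02 in the shSOX2 line, and HSPA1B -0.08, HSPA5 -1.08 and CCT7 -0.63 in the shTP63 line. Leaving out replicate 1 or 2 of induced shTP63, its changes ran from -0.21 to 0.55 for HSPA5, -0.45 to 0.25 for HSP90B1, -0.16 to 0.08 for CCT3, -0.13 to 0.05 for CCT4 and -0.17 to 0.22 for CCT7. The causes were not tested. The lone day 0 library per line and the unknown depth limit every comparison.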
